A study of Populus deltoides with 38 samples.

Results

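Leaf mRNA of Populus deltoides, an eastern cottonwood, was compared between plants kept at high (1500 µM) and at middle (100 µM) sulfate, both without Cd. The comparison rests on 3 high and 3 middle sulfate libraries, which are 6 of the 18 mRNA libraries and of the 38 samples in the series. Its members are the 23166 of 39572 deposited loci whose mean over the 18 mRNA libraries was at least 1 FPKM (fragments scaled by transcript length and library total, the unit of the deposited values). Per the labels, the plants came from rooted stem cuttings of the strain monilifera (Aiton) Eckenw, grew for 8 weeks before hydroponics and were 89 days old. They received 0 (low), 100 (middle) or 1500 µM (high) sulfate for 12 days. They were then kept at the same sulfate supply with 0 or 50 µM CdCl2 for a further 21 days. The libraries of the comparison are called M1 to M3 (100 µM sulfate, no CdCl2) and H1 to H3 (1500 µM sulfate, no CdCl2). The low sulfate group and the groups with CdCl2 enter here as values beside it. The labels do not tie the libraries to single ones of the 72 plants. The p-values therefore speak of the spread among these libraries, which may be technical.

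Plants take up sulfate through transporters in root and shoot membranes, activate it with ATP sulfurylase, and reduce it in plastids to sulfide, which is built into cysteine. Cysteine feeds glutathione and the phytochelatins made from it, which bind Cd. The microRNA miR395 is known from several plants to accumulate when sulfate is short, and to guide the cutting of ATP sulfurylase and sulfate transporter transcripts. The related miRNAs miR482, miR472 and miR1448 are known for cutting transcripts of nucleotide-binding, leucine-rich repeat immune receptors. Both groups of miRNAs are described here through the genes for which the authors' degradome tables, which list 5′ ends of cut transcripts, give a cut site. The gene groups take in every entry of these families in the degradome tables, and only some of their sequences are shown. Entries not shown include mes-miR482_L-2R-2, listed for 17 genes, and entries labelled p5 for miR395, miR472 and miR1448. The sequences shown are printed 5′ to 3′ as deposited, and capitals mark the seed, bases 2 to 8.
ptc-miR395a: cTGAAGGGtttggaggaactc
ptc-miR395b: cTGAAGTGtttgggggaactc
stu-miR395a_1ss1CA: aTGAAGTGtttgggggaactc
ptc-miR472a: tTTTCCCTactccacccatccc
ptc-miR472b: tTTTCCCAactccacccatccc
vvi-miR482: tCTTTCCTactcctcccattcc
ptc-miR482c-3p: tCTTTCCGagtcctcccatacc
ptc-miR1448_L+1R+1: tCTTTCCAacgcctcccatacc
The miR395b form and the form named after stu-miR395a share the seed TGAAGTG and differ outside it, whereas miR395a carries the seed TGAAGGG. The other 5 sequences each had a seed of their own among those printed.

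High sulfate was associated with few changes that passed the test. Of 23166 loci, 19 (0.082%) differed between high and middle sulfate at an adjusted p under 0.05, 8 higher (0.0345%) and 11 lower (0.0475%) at high sulfate. The test was limma's moderated test on log2(FPKM + 1), two-sided, with Benjamini-Hochberg adjustment over all tested loci. The split was 14 higher and 9 lower after quantile normalization and 8 higher and 7 lower after median centring, and when only the 6 compared libraries were fitted none of the 19 was called, and 1 other locus was. Changes below are high minus middle sulfate on that log2 scale with their standard error, and they understate the change of loci of low level. The median change of all tested loci was -0.02, and 90% of them lay between -0.60 and 0.38. At an adjusted p under 0.10 by limma, 404 loci (1.74%) passed, 145 higher (0.626%) and 259 lower (1.12%). Without adjustment, 3568 loci (15.4%) had p under 0.05, 1357 higher (5.86%) and 2211 lower (9.54%). In 4696 loci (20.3%) the 3 high sulfate libraries lay all above or all below the 3 middle ones, with 1864 above (8.05%) and 2832 below (12.2%).

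**Figure D1:**
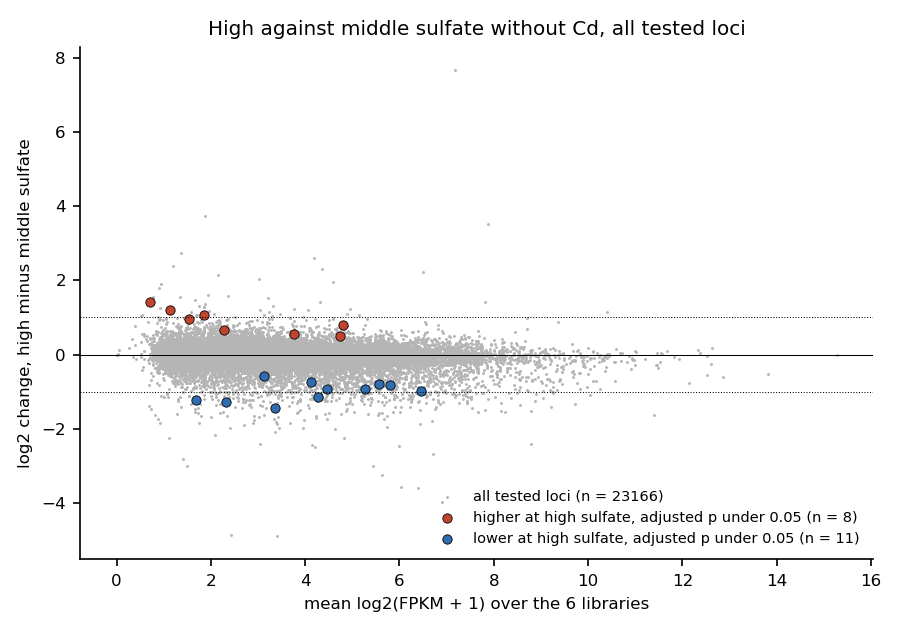
Change between high and middle sulfate without Cd (vertical axis, log2) against the mean level over the 6 libraries (horizontal axis, log2 of FPKM + 1) for all 23166 tested loci. Red points are the 8 loci called higher and blue points the 11 called lower, and the dotted lines mark a 2-fold change. The called loci are not those with the largest changes.

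The deposited identifiers carry no gene names, and the reference table for Populus deltoides paired none of them with a product, so no role is given to any locus. For the same reason the leaf label could not be checked against markers of leaf cell types. FPKM values keep no library totals, and the depth of these libraries is unknown. FPKM summed over all loci to between 858094 and 976794 in the middle and between 817351 and 835794 in the high sulfate libraries. H1 stood farther from the other high sulfate libraries than they stood from each other. The root mean square log2 difference over the tested loci was 0.384 between H2 and H3, 0.451 between H1 and H2, and 0.475 between H1 and H3. The middle sulfate libraries differed from each other by 0.398 to 0.417. Between groups, M1 and H2 differed by 0.376, less than any pair within a group, and M3 and H1 differed by 0.582, the most of the 15 pairs. The first principal component of the 18 libraries, which held 28.6% of the variance, placed M1 to M3 at -50.0 to -61.9, H1 to H3 at -13.8 to -36.7, and the low sulfate libraries without Cd at 1.12 to 18.1.

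The 8 loci that rose spanned low to moderate levels, from a mean of 1.69 to one of 35.8 FPKM at high sulfate. Potri.001G109800 (chromosome 1, 8731788 to 8739112, coordinates as deposited, build not given in the sources used here) measured 1.13, 1.11 and 1.03 FPKM in M1, M2 and M3 and 2.78, 3.05 and 3.36 FPKM in H1, H2 and H3. Its groups did not overlap, the mean was 2.80-fold higher at high sulfate, and the change was 0.95 ± 0.12 (limma adjusted p = 0.013), the smallest adjusted p of the comparison. In the low sulfate libraries without Cd it measured 2.46 FPKM or less, so that level lay between the middle and the high ones. Potri.002G143400 (chromosome 2, 10667313 to 10668813) stood at 0.618, 0.303 and 0.397 FPKM in M1 to M3 and at 2.86, 2.33 and 1.83 FPKM in H1 to H3. Each high sulfate library exceeded every middle one, with a change of 1.21 ± 0.16 (limma adjusted p = 0.0147). Potri.008G125700 (chromosome 8, 8191148 to 8192234) measured 1.58, 1.32 and 1.58 FPKM in the middle and 3.93, 5.12 and 3.67 FPKM in the high sulfate libraries. The groups were well apart, with H2 the highest, and the change was 1.07 ± 0.17 (limma adjusted p = 0.0359). All 3 low sulfate libraries without Cd were higher still, at 7.74, 8.30 and 6.28 FPKM.

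Potri.007G110300 (chromosome 7, 13333664 to 13334104) was listed at 0 in all 3 middle sulfate libraries and at 1.98, 1.49 and 1.59 FPKM in H1 to H3. A listed 0 can be a failed estimate, so no fold is given, and limma's adjusted p was 0.0302. The locus passed the filter narrowly, and without H1 to H3 its mean over the other libraries lay under 1 FPKM. It was highest at low sulfate with Cd, at 2.21, 1.70 and 2.85 FPKM. Without those libraries its mean lay under 1 FPKM as well. With the filter applied to the 6 compared libraries it was not tested. Potri.015G123400 (chromosome 15, 13697531 to 13700943) measured 2.72, 3.08 and 2.82 FPKM in M1 to M3 and 6.20, 4.99 and 4.41 FPKM in H1 to H3. H1 was its highest library, and the change was 0.67 ± 0.12 (limma adjusted p = 0.0471). Potri.001G469200 (chromosome 1, 50144831 to 50146490) measured 10.3, 9.28 and 11.3 FPKM in the middle and 14.1, 15.1 and 17.7 FPKM in the high sulfate libraries. Its groups lay apart by less than the range within the high group, and the change was 0.56 ± 0.09 (limma adjusted p = 0.0359).

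The 2 most abundant loci that rose stood at 18.1 FPKM or more in each of the 6 libraries. Potri.006G254100 (chromosome 6, 25912920 to 25917176) measured 20.2, 18.1 and 22.6 FPKM in M1 to M3 and 34.1, 40.2 and 33.1 FPKM in H1 to H3. The lowest high sulfate library stood well above the highest middle one, and the change was 0.79 ± 0.13 (limma adjusted p = 0.0414). The low sulfate libraries without Cd were higher than both, at 62.5, 56.8 and 46.1 FPKM. Potri.010G106800 (chromosome 10, 12667293 to 12670595) measured 21.5, 24.4 and 19.2 FPKM in the middle and 30.2, 32.2 and 30.0 FPKM in the high sulfate libraries. The high sulfate libraries were close together, and this smallest of the 19 changes, 0.49 ± 0.09, passed narrowly (limma adjusted p = 0.04997).

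The 11 loci that fell were on the whole more abundant, with means of 4.04 to 124.2 FPKM at middle sulfate. The most abundant was Potri.001G301900 (chromosome 1, 30578258 to 30582163), at 109.0, 124.8 and 138.8 FPKM in M1 to M3 and at 51.6, 54.1 and 84.4 FPKM in H1 to H3. H3 stood nearer the middle libraries than H1 and H2 did, and the change was -0.99 ± 0.17 (limma adjusted p = 0.045). Potri.009G125400 (chromosome 9, 10412111 to 10416136) measured 61.4, 71.1 and 88.2 FPKM in the middle and 37.2, 39.0 and 47.3 FPKM in the high sulfate libraries. Here too H3 was the highest of its group, and the change was -0.81 ± 0.13 (limma adjusted p = 0.0302). Potri.009G102000 (chromosome 9, 9006703 to 9010297) measured 59.1, 51.0 and 77.0 FPKM in M1 to M3 and 33.6, 30.6 and 41.4 FPKM in H1 to H3. The groups did not overlap, with a change of -0.80 ± 0.14 (limma adjusted p = 0.0471). Potri.001G296400 (chromosome 1, 30070679 to 30073718) measured 43.0, 56.7 and 59.9 FPKM in the middle and 22.3, 26.8 and 33.1 FPKM in the high sulfate libraries. M1 was the lowest middle and H3 the highest high sulfate library, and the change was -0.94 ± 0.16 (limma adjusted p = 0.0471).

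At intermediate levels, Potri.001G239300 (chromosome 1, 25043370 to 25047084) measured 25.5, 30.0 and 33.1 FPKM in M1 to M3 and 14.4, 12.5 and 18.4 FPKM in H1 to H3. H3 was again the closest to the middle group, and the change was -0.93 ± 0.14 (limma adjusted p = 0.0302). Potri.014G146000 (chromosome 14, 11136435 to 11137954) measured 21.5, 29.1 and 34.5 FPKM in the middle and 11.2, 9.79 and 15.9 FPKM in the high sulfate libraries. Its change was -1.15 ± 0.20 (limma adjusted p = 0.04997), with M1 and H3 facing each other across the gap between the groups. Potri.001G315000 (chromosome 1, 32069002 to 32074536) measured 17.8, 23.4 and 23.2 FPKM in M1 to M3 and 13.2, 11.3 and 13.0 FPKM in H1 to H3. The change was -0.73 ± 0.13 (limma adjusted p = 0.0471), and M1 lay apart from the other middle libraries. Potri.014G017500 (chromosome 14, 1683363 to 1689338) had tight groups, at 10.1, 8.91 and 10.2 FPKM in the middle and 6.26, 5.94 and 6.40 FPKM in the high sulfate libraries. Its change was small, -0.58 ± 0.09 (limma adjusted p = 0.0302).

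The largest of the 19 changes was in Potri.015G000800 (chromosome 15, 40285 to 41854), at 11.8, 14.3 and 24.5 FPKM in M1 to M3 and 4.69, 5.08 and 6.02 FPKM in H1 to H3. M3 stood well above M1 and M2, and the change was -1.45 ± 0.24 (limma adjusted p = 0.0423). A pair of loci with no gene identifier also fell. XLOC_001643 (chromosome 1, 33813474 to 33813824) measured 5.39, 7.70 and 7.50 FPKM in the middle and 1.98, 2.23 and 2.37 FPKM in the high sulfate libraries. Its groups were far apart, with a change of -1.29 ± 0.17 (limma adjusted p = 0.0147), and it was listed at 0 in all 9 libraries with Cd. XLOC_006237 (chromosome 2, 1275210 to 1275982) measured 3.74, 5.30 and 3.08 FPKM in M1 to M3 and 0.734, 1.31 and 1.32 FPKM in H1 to H3. The lowest middle library exceeded the highest high sulfate library, and the change was -1.24 ± 0.19 (limma adjusted p = 0.0302). Both loci without an identifier passed the filter only through M1 to M3, as their mean over the other libraries lay under 1 FPKM. With a pseudocount of 0.1 neither was called (limma adjusted p = 0.241 for XLOC_001643 and 0.179 for XLOC_006237).

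**Figure D2:**
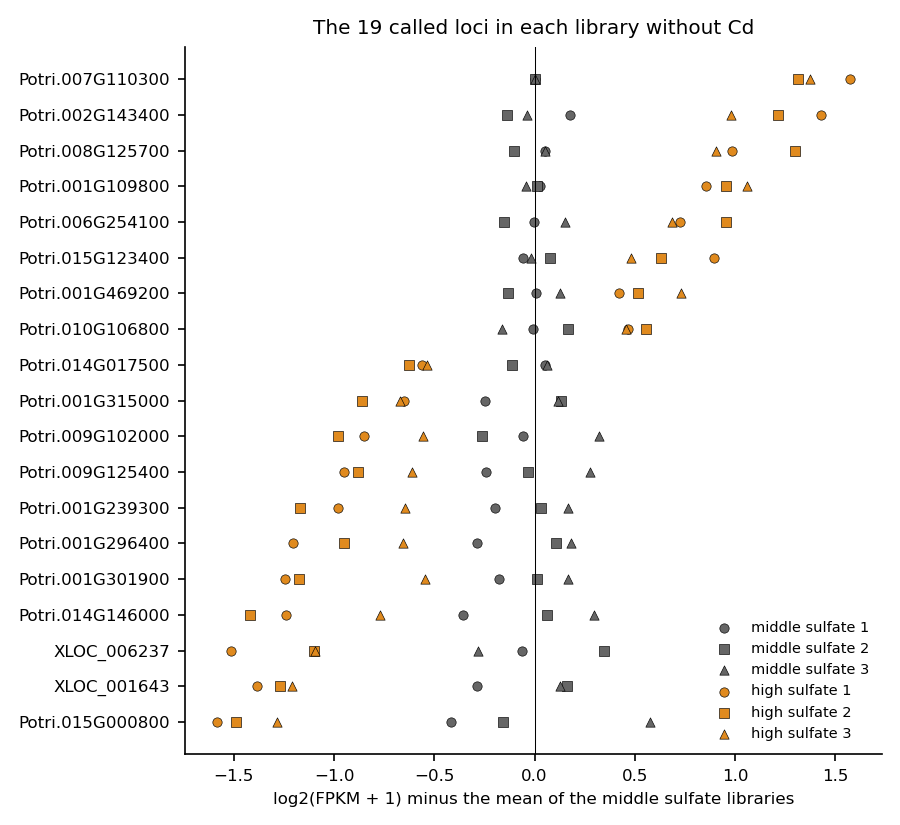
The 19 called loci in each of the 6 libraries, as log2(FPKM + 1) minus the mean of the middle sulfate libraries (horizontal axis). Grey symbols are middle and orange symbols high sulfate libraries, with circles, squares and triangles for libraries 1, 2 and 3. In each locus the 2 colours do not overlap, and in 10 of the 11 loci that fell H3 (orange triangle) lies nearest to the middle libraries. The loci were chosen for differing in these same libraries, so the separation follows in part from that choice. Of all tested loci, 20.3% had groups without overlap.

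Just outside the threshold, given as a description, lay XLOC_033002 with a change of -1.13 (limma adjusted p = 0.0514), Potri.004G061500 with -0.81 (limma adjusted p = 0.0514) and Potri.013G156300 with 0.69 (limma adjusted p = 0.0611). Of the 19 called loci, 7 lay on chromosome 1, which held 2752 (11.9%) of the tested loci.

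Seen across all 18 mRNA libraries, the middle sulfate group without Cd held the end of the range in most of these loci. In all 11 loci that fell, M1 to M3 were the 3 highest of the 18 libraries, against 4.22% of all tested loci. In 6 of the 8 loci that rose, they were the 3 lowest of the 18, against 1.61% of all tested loci. In the 2 others, Potri.007G110300 and Potri.001G469200, libraries of other groups reached down to the middle ones. Any comparison made against M1 to M3 shares these libraries, so these orders are not separate results. The called loci were also chosen for differing between M1 to M3 and H1 to H3, which fixed part of each order. Over all tested loci, M1 to M3 lay above H1 to H3 in 2832 and were the 3 highest of the 18 in 977. They lay below H1 to H3 in 1864 and were the 3 lowest of the 18 in 372.

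The number of calls depended on single libraries. Without M1, limma called 173 loci (48 higher and 125 lower), and without H3 it called 219 (47 higher and 172 lower). Without M2 it called 2 loci, without H1 and without H2 1 each, and without M3 none. All 19 loci were among those called without M1 and among those called without H3, where they made up 11.0% and 8.68% of the longer lists, and 101 loci were in both lists. Of the 19, 1 was called without M2, 1 without H1, and none without M3 or without H2. Potri.001G109800 was the locus called in the most of these 6 fits, 4, and the other 18 were called in 2 of them. The unadjusted counts at p under 0.05 moved less, from 2269 without H1 and 2339 without M3 to 3789 without H3 and 4143 without M1.

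Directions and sizes in the 19 loci held better than the calls. No locus changed sign when any of the 6 libraries was left out, and the largest unadjusted limma p of any of them was 3.9e-04. The change of Potri.001G109800 ran from 0.90 to 1.01 over these fits and that of Potri.014G017500 from -0.63 to -0.54. The widest range was that of Potri.015G000800, from -1.66 to -1.16. Since the 19 were chosen for differing in these same 6 libraries, that stability is a description of them and no separate support. Leaving out 1 library of the 4 groups that are not compared, which alters only the estimate of the spread, gave between 3 and 54 calls.

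**Figure D3:**
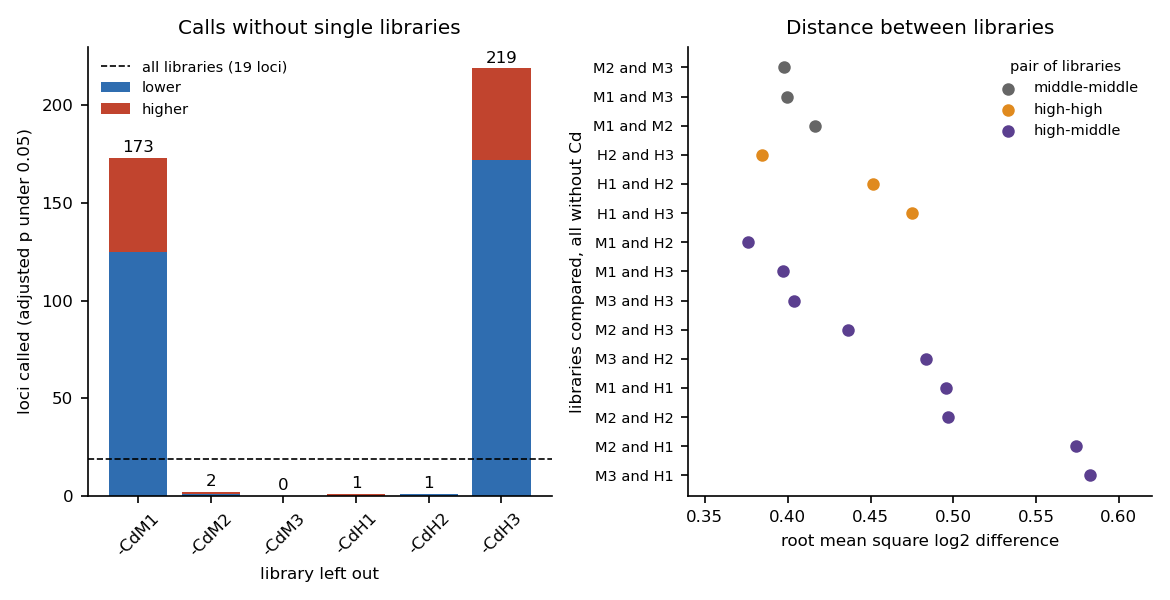
Left, the number of loci called (limma, adjusted p under 0.05) when 1 of the 6 libraries is left out, blue for lower and red for higher at high sulfate, with a dashed line at the 19 calls from all libraries. Right, the root mean square log2 difference of the 15 pairs of libraries, from 0.376 for M1 and H2 to 0.582 for M3 and H1. The 2 libraries whose removal raised the count, M1 and H3, differ from each other by 0.397.

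The same sulfate contrast was measured in 6 other libraries, from plants with Cd. There limma called none of the 23166 loci (0%) at an adjusted p under 0.05, with 1925 loci (8.31%) at an unadjusted p under 0.05 and 3064 (13.2%) without overlap between the groups. The interaction test, which asks whether the sulfate change differed without and with Cd, also called none, with 1910 loci (8.24%) at an unadjusted p under 0.05. Among the 19 loci, 15 had the same sign with Cd, 3 the opposite sign and 1, XLOC_001643, was listed at 0 throughout. By direction, 10 of the 11 that fell without Cd had a change below 0 with Cd, and 5 of the 8 that rose had one above 0. With Cd, 7 of the 19 had an unadjusted limma p under 0.05. Among these was Potri.007G110300, which changed in the opposite direction (-0.68 ± 0.22). In all 19 the change was smaller in size than without Cd. Since the 19 were chosen on their change without Cd, smaller changes in other libraries follow in part from that choice. The test of the difference gave an unadjusted p under 0.05 in all 19 and a smallest limma adjusted p of 0.144, but it contains the libraries on which they were chosen.

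Of the 19, Potri.001G109800 had the largest change above 0 with Cd, at 3.47, 3.67 and 3.68 FPKM at middle and 5.12, 5.84 and 4.72 FPKM at high sulfate. These groups did not overlap either, and the change of 0.43 ± 0.12 had a limma adjusted p of 0.281. Its levels with Cd exceeded those without Cd at the same sulfate supply. In Potri.006G254100 the groups with Cd overlapped, at 52.5, 70.3 and 59.3 FPKM at middle and 66.2, 69.7 and 59.7 FPKM at high sulfate. Potri.007G110300 went the other way, at 0.703, 1.40 and 0.836 FPKM at middle sulfate with Cd and at 0.814, 0 and 0 FPKM at high sulfate with Cd. This locus had the smallest adjusted p of the difference, 0.144 (limma). Among the loci that fell, Potri.009G125400 measured 24.2, 18.8 and 21.9 FPKM at middle and 17.1, 16.2 and 17.2 FPKM at high sulfate with Cd. Those groups did not overlap, with a change of -0.34 ± 0.13 (limma adjusted p = 0.470). Potri.001G301900 measured 49.3, 41.8 and 51.0 FPKM at middle and 40.8, 31.6 and 33.0 FPKM at high sulfate with Cd, a change of -0.42 ± 0.17 (limma adjusted p = 0.508).

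**Figure D4:**
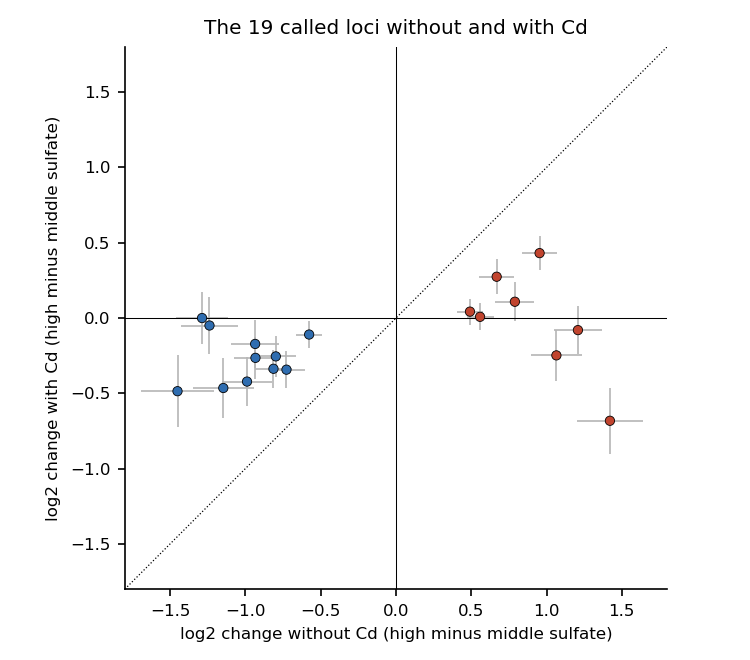
Change between high and middle sulfate with Cd (vertical axis, log2) against the change without Cd (horizontal axis, log2) for the 19 called loci, with bars of 1 standard error; red loci rose and blue loci fell without Cd. All points lie nearer to 0 on the vertical than on the horizontal axis, and the dotted line marks equal changes. The loci were chosen on their change without Cd, so this follows in part from that choice.

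Changes of at least 2-fold were more common than calls and mostly below 0. They were found in 407 loci (1.76%), 55 higher (0.237%) and 352 lower (1.52%). The groups did not overlap in 287 of the 407, beside 20.3% of all tested loci, and 7 of these were called. As the 407 were chosen by their change in the same 6 libraries, that count is no separate result. Among the 407, 73 had no gene identifier (17.9%, against 2.35% of all tested loci), and 73 were listed at 0 in at least 1 of the 6 libraries. The number of such loci also moved with single libraries, to 685 without H3, 629 without M1 and 456 without H2, and to 386 without M2, 385 without M3 and 283 without H1. Of the 407, 127 stayed at or above 2-fold whichever of the 6 libraries was left out. Without H1, 188 of them dropped below 2-fold, and without M2, M3 and H2 118, 102 and 83 did. Leaving out M1 or H3 put 35 and 32 of them below it while adding other loci.

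The loci with the largest changes, named after their values were seen, did not pass the test. Potri.008G022800 (chromosome 8, 1179048 to 1181670) measured 79.6, 26.5 and 83.5 FPKM in M1 to M3 and 1.13, 0.81 and 0.874 FPKM in H1 to H3. Its groups were far apart, and the change was -4.89 ± 1.18 (limma adjusted p = 0.0849). In other groups the same locus varied between libraries of 1 treatment, at 95.6, 43.0 and 1.58 FPKM at low sulfate without Cd and at 89.2, 30.9 and 8.51 FPKM at middle sulfate with Cd. Potri.016G008200 (chromosome 16, 403467 to 407834) measured 38.2, 20.4 and 28.9 FPKM in M1 to M3 and was listed at 0 in H1 to H3 (limma adjusted p = 0.118). Potri.008G033600 was listed at 0 in M1 to M3 and at 8.38, 22.3 and 9.82 FPKM in H1 to H3 (limma adjusted p = 0.201). These listed zeros allow no fold. XLOC_029292, which has no gene identifier (chromosome 13, 14841561 to 14841718), was listed at 0, 0 and 1056.3 FPKM in M1 to M3 and at 2267.9, 1853.9 and 2104.0 FPKM in H1 to H3. Its groups did not overlap, but the middle libraries ran from a listed 0 to 1056.3 FPKM (limma adjusted p = 0.295). XLOC_029293 measured 672.1, 0 and 509.0 FPKM in the middle and 926.0, 1058.5 and 516.9 FPKM in the high sulfate libraries. Its change of 3.51 came down to 0.45 without M2, the library listed at 0.

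Genes with miRNA cut sites were next described as groups. The degradome tables listed a cut site in at least 1 pool for 856 genes. Of these, 784 lay in a tested locus, and as some loci join genes and some genes have more than 1 locus, they correspond to 778 loci. None of the 778 loci was called (limma adjusted p under 0.05). Among them, 40 had an unadjusted p under 0.05 and were higher and 103 were lower, beside 5.86% and 9.54% of all tested loci. Their median change was -0.04, beside -0.02 for all tested loci. None of the 19 called loci was listed in the degradome tables. Among the 44 miRNA families with at least 3 tested loci, none had a called locus, and the family medians ran from -0.56 to 0.31.

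Genes with a site listed for miR395, the sulfate miRNA, showed no common direction. All 9 were tested, none was called, 1 was lower at an unadjusted p under 0.05, and their median change was -0.07, with -0.13 to 0.02 when single libraries were left out. Potri.010G081200, whose cut site is in category 0, which in the usual degradome scheme is a site with the most reads of its transcript, measured 28.0, 22.0 and 26.9 FPKM in M1 to M3 and 30.2, 34.9 and 25.8 FPKM in H1 to H3. The groups overlapped, and the change was 0.23 ± 0.12 (limma adjusted p = 0.400). Potri.008G159000, also in category 0, measured 49.6, 44.1 and 70.8 FPKM in the middle and 48.4, 47.7 and 46.7 FPKM in the high sulfate libraries. The high sulfate libraries lay inside the middle range, with a change of -0.17 ± 0.25 (limma adjusted p = 0.806). Potri.002G092400, the remaining gene in category 0, measured 28.1, 24.6 and 23.8 FPKM in M1 to M3 and 37.5, 22.7 and 23.9 FPKM in H1 to H3. Only H1 stood above the middle libraries, and the change was 0.10 ± 0.18 (limma adjusted p = 0.850). Potri.003G168500, in category 4, sites with a single read in that scheme, measured 18.4, 21.8 and 20.3 FPKM in M1 to M3 and 14.0, 14.1 and 16.2 FPKM in H1 to H3. Its groups did not overlap, but the change of -0.43 ± 0.13 did not pass (limma adjusted p = 0.136). The 3 miR395 genes with a site in category 0 or 1 had a median change of 0.10. That median ran from -0.12 to 0.19 when single libraries were left out. The other miR395 genes had their best site in category 2 or 4, with at most 3 reads.

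In the small RNA libraries of the same 2 treatments, miR395 made up 0.0340, 0.0285 and 0.0285% of the listed reads at middle sulfate and 0.0307, 0.0216 and 0.0194% at high sulfate. The mean was 0.0303 ± 0.00321% (SD, n = 3) at middle and 0.0239 ± 0.00601% (SD, n = 3) at high sulfate, with overlapping groups. An exact two-sided permutation test gave p = 0.3, where 0.1 is the smallest p that 3 against 3 libraries can give.

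Genes with sites listed for miR482, miR472 or miR1448 lay mostly below 0. Of 54 such genes, 41 lay in a tested locus, and these were 41 loci, none of them called. At an unadjusted p under 0.05 none was higher and 14 were lower, beside 5.86% and 9.54% of all tested loci. A change below 0 was found in 33 of the 41, beside 53.8% of all tested loci. The median change was -0.27, beside -0.02 for all tested loci, and -0.34 to -0.22 when single libraries were left out. Relative to the mean of the middle sulfate libraries, the median of these loci was -0.14 in M1, 0.07 in M2 and 0.05 in M3, and -0.32 in H1, -0.26 in H2 and -0.16 in H3. M1 and H3 thus stood almost at the same level. With Cd, in other libraries, the median change was -0.15, beside -0.004 for all tested loci. Without M1, limma called 1 of the 41, and without H3 it called 2. Only 12 of the 41 had a site in category 0 or 1. Their median change was -0.33, with 11 below 0, and -0.39 to -0.25 when single libraries were left out. Genes cut by 1 miRNA share at least part of the sequence at the site, so they are not independent of each other, and reads may be split between close copies.

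Single genes of that group came near the threshold without passing it. Potri.005G041300 measured 18.3, 16.9 and 17.0 FPKM in M1 to M3 and 12.8, 13.1 and 13.7 FPKM in H1 to H3. The groups were tight and apart, with a change of -0.37 ± 0.08 (limma adjusted p = 0.0698). Its best site was in category 2, with at most 4 reads, and was listed only in the pool without Cd. Potri.016G059800 measured 24.0, 25.5 and 27.4 FPKM in the middle and 18.4, 21.1 and 20.2 FPKM in the high sulfate libraries. It did not overlap either, with -0.35 ± 0.07 (limma adjusted p = 0.0724). Its site was in category 4, with 1 read, and was listed only in the pool with Cd. Potri.006G147100, whose site is in category 0, measured 9.81, 14.4 and 12.9 FPKM in M1 to M3 and 3.64, 5.92 and 6.69 FPKM in H1 to H3. Its change was larger and less precise, -1.08 ± 0.24 (limma adjusted p = 0.0757), and its site had at most 10 reads. The sites with the most reads, all in category 0, were in loci of both directions. Potri.010G231200, with up to 1502 reads, changed by -1.01 ± 0.26 (limma adjusted p = 0.095). Potri.006G007900, with up to 311 reads, changed by 0.28 ± 0.17 (limma adjusted p = 0.455). Potri.005G010500, with up to 129 reads, changed by -0.09 ± 0.14 (limma adjusted p = 0.813).

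**Figure D5:**
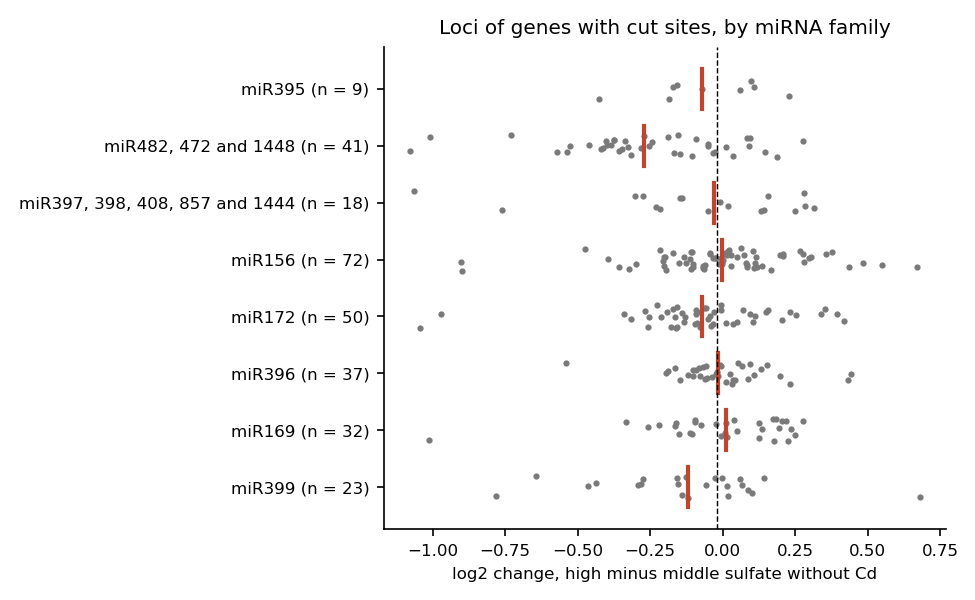
Change between high and middle sulfate without Cd (horizontal axis, log2) of tested loci of genes with a listed cut site, by miRNA family, with 1 point per locus. Red bars are family medians and the dashed line is the median of all tested loci, -0.02. The miR482, miR472 and miR1448 loci have a median of -0.27 and the miR395 loci one of -0.07.

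Other large families had medians between -0.12 and 0.01. Among 72 tested loci of miR156 genes, 6 were higher and 7 lower at an unadjusted p under 0.05, with a median change of -0.002. The 50 miR172 loci had 1 higher and 8 lower with a median of -0.07, the 37 miR396 loci had 1 higher and none lower with -0.02, and the 32 miR169 loci had 4 higher and 1 lower with 0.01. For miR399, known for its part in phosphate supply, 23 loci had a median of -0.12 with 1 higher and none lower. That median ran from -0.16 to -0.04 when single libraries were left out, and came nearest to 0 without M1. Loci of the families tied to copper supply, miR397, miR398, miR408, miR857 and miR1444, had a median of -0.03, with none of 18 higher and 2 lower. That median joins opposite directions, as the 6 miR397 loci had a median of 0.20 and the 7 miR1444 loci one of -0.23. Both sizes leaned on single libraries. The miR397 median came down to 0.09 without M2, and the miR1444 median came to -0.10 without H3. Relative to the middle sulfate mean, the miR1444 median was -0.08 in H1, -0.13 in H2 and -0.73 in H3.

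A few smaller families are named here after their values were seen, while others of like size, such as miR166 with 13 loci and a median of -0.03 and miR160 with 12 loci and a median of 0.04, lay near the median of all loci. The 13 miR530 loci had a median of -0.20 with 7 lower, and the 6 miR393 loci one of 0.23 with 2 higher. The 8 miR828 loci had a median of 0.31 with 2 higher and 3 lower, which came down to 0.14 without H1. Relative to the middle sulfate mean, the miR828 median was 0.59 in H1, 0.12 in H2 and 0.06 in H3.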

How the data were processed

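The mRNA files deposited by the authors hold 1 FPKM value per locus and library, with coordinates and, for most loci, a gene identifier. TopHat2 2.1.1 is named per the submitters' processing notes; the build, the gene models and the step from alignments to FPKM were not given in the sources used here. For small RNA, the authors deposited an expected count per mature sequence and library. The degradome tables deposited by the authors give a read count and a score for each cut site and its category. The groups and replicate numbers come from the sample titles. Loci with a mean of at least 1 FPKM over the 18 libraries were fitted as log2(FPKM + 1) with limma 3.58.1 in R 4.3.3 (6 group means, trend and robust empirical Bayes, two-sided, Benjamini-Hochberg). A locus was called at an adjusted p under 0.05. FPKM keeps no depth, so no counting interval is given. The scripts were tested on simulated data. The named loci are the called loci without overlap between groups, taken by smallest p and largest change. The permutation test used scipy 1.17.1, on expected counts of all miR395 entries over all listed reads. Members and lists were chosen with earlier results of these data known. Lists by gene product could not be applied, as no source used here pairs the identifiers with names. Alternatives changed the pseudocount, the filter, the scaling, the replicate block, the fitted groups, the empirical Bayes step and single libraries.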

Additional observations from a re-analysis of the deposited data

How the results depend on the processing

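Against 19 loci called without Cd, limma called 10 (7 higher, 3 lower) with a pseudocount of 0.1, 1, none of the 19, when only the 6 compared libraries were fitted, 12 with the filter applied to those 6 libraries, and 7 when a 2-fold change was also required. Other settings gave 13 to 23 calls. Quantile normalization gave 14 higher and 9 lower, and median centring 8 higher and 7 lower. Leaving out single libraries, those of the other groups included, gave 0 to 219 calls, an alternative partly added after seeing the data. Over the other settings, 102 of 165 values for the 19 loci were still called and 63 kept the direction without a call, and none reversed. With Cd the count was 0, and 0 to 5 without single libraries. The interaction gave 0, 1 with no filter on low values, and 0 to 5 without single libraries, with 5 in both cases when replicate 1 at middle sulfate with Cd was left out. Genes with cut sites gave 0, and 0 to 15 without single libraries, the most without H3.

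With the replicate number as a block, 18 loci were called, 11 of them among the 19, and 1 gene with a cut site was called. The numbers come from the titles, and whether they mark more than a label was not tested. Without Cd, same-numbered high and middle sulfate libraries deviated from their group means with correlations of 0.10, -0.11 and 0.23. With Cd, the correlations were 0.22, -0.01 and 0.24. Not every library deviated most like the one of its own number. Lists by gene product were not run. The cause of these moves was not tested. The depth is unknown, and low levels and listed zeros also limit the precision.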
